A study of Cavia porcellus with 12 samples.

Results

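Genes that sense sterols and govern the uptake of lipoprotein cholesterol were followed in the livers of guinea pigs with NASH and of controls. The group was a list of 9 human symbols (*SREBF2*, *SCAP*, *INSIG1*, *INSIG2*, *ACAT2*, *NR1H3*, *NR1H2*, *MYLIP* and *SCARB1*), and all 9 were among the 11896 symbols in the authors' table of rlog values, counts on a regularised log2 scale. The rule asked only that a symbol be in that table, and each one stood on a count row of its own.

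Liver mRNA was sequenced from 6 female Dunkin Hartley guinea pigs with NASH, kept on a high-fat diet, and from 6 female controls of the same strain, kept on chow, both over 25 weeks. The animals carried no transgene or deletion, the high-fat diet also held sucrose and cholesterol, and the animals with NASH were those with bridging fibrosis, so that diet, steatosis and fibrosis cannot be told apart in this design. The tissue was a piece of the left lateral lobe from livers that had not been perfused. In such bulk tissue fewer cells of a type and less RNA per cell cannot be told apart.

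Sterol regulatory element-binding protein 2, the product of *SREBF2*, is held in the membrane of the endoplasmic reticulum (ER) by its escort SCAP. When the membrane is poor in sterols, SCAP carries it to the Golgi, where proteases release the part that enters the nucleus and switches on genes of sterol synthesis and of lipoprotein uptake. When sterols are plentiful, the INSIG proteins retain SCAP in the ER. The liver X receptors (LXR), encoded by *NR1H3* and *NR1H2*, respond to oxidised sterols, act as pairs with retinoid X receptors, and switch on genes of cholesterol efflux together with *MYLIP*, a ubiquitin ligase that marks lipoprotein receptors for degradation.

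Total counts ran from 16980274 to 33091460 per animal. Levels are CPM, counts scaled to the library total and to a TMM factor for composition. These factors separated the groups, at 0.804 to 0.875 for controls and 1.12 to 1.24 for NASH, and with library size alone the median gene had a log2 fold change of 0.48 in place of 0.002. CPM values of different genes are not per length and are not compared with each other. No library was present more than once, since the closest pair within a group still differed 43.4 times more than counting error allows. The summed CPM of the 7 hepatocyte markers found ran from 84302 to 105210 among controls and from 35521 to 54431 in NASH, with 5 of the 7 lower and 0 higher by edgeR (6 lower and 0 higher at an unadjusted p-value under 0.05, 3 lower and 1 higher with library size alone). Most of that sum and of its fall was *ALB*, at a mean of 74883 CPM in controls and 30535 CPM in NASH. The summed stellate cell and cholangiocyte markers lay higher in every animal with NASH than in every control, and so did the macrophage sum, the latter only with *GPNMB* in it. Their part in the results below was not tested.

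Of the 9 members, 2 were higher and 5 were lower in guinea pigs with NASH by edgeR's quasi-likelihood test at a Benjamini-Hochberg adjusted p-value under 0.05, and 2 did not pass. *MYLIP* and *NR1H2* rose, whereas *SREBF2*, *INSIG1*, *ACAT2*, *NR1H3* and *SCARB1* fell, the last of them without a stable call (its log2 fold change was 0.13 with library size alone, and the call was lost in 8 further alternatives). Across all 11896 genes 53.9% passed this threshold, 27.9% higher and 26.0% lower. In 6 of the 9 members the groups did not overlap in CPM, 2 higher and 4 lower, where 33.7% of all genes did not overlap, 18.4% higher and 15.3% lower. With this background the results are those of the single genes, and nothing is read from the count of members. The counts in the gene lists below stand beside the same shares, which with library size alone were 63.9% higher and 7.66% lower.

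**Figure D1:**
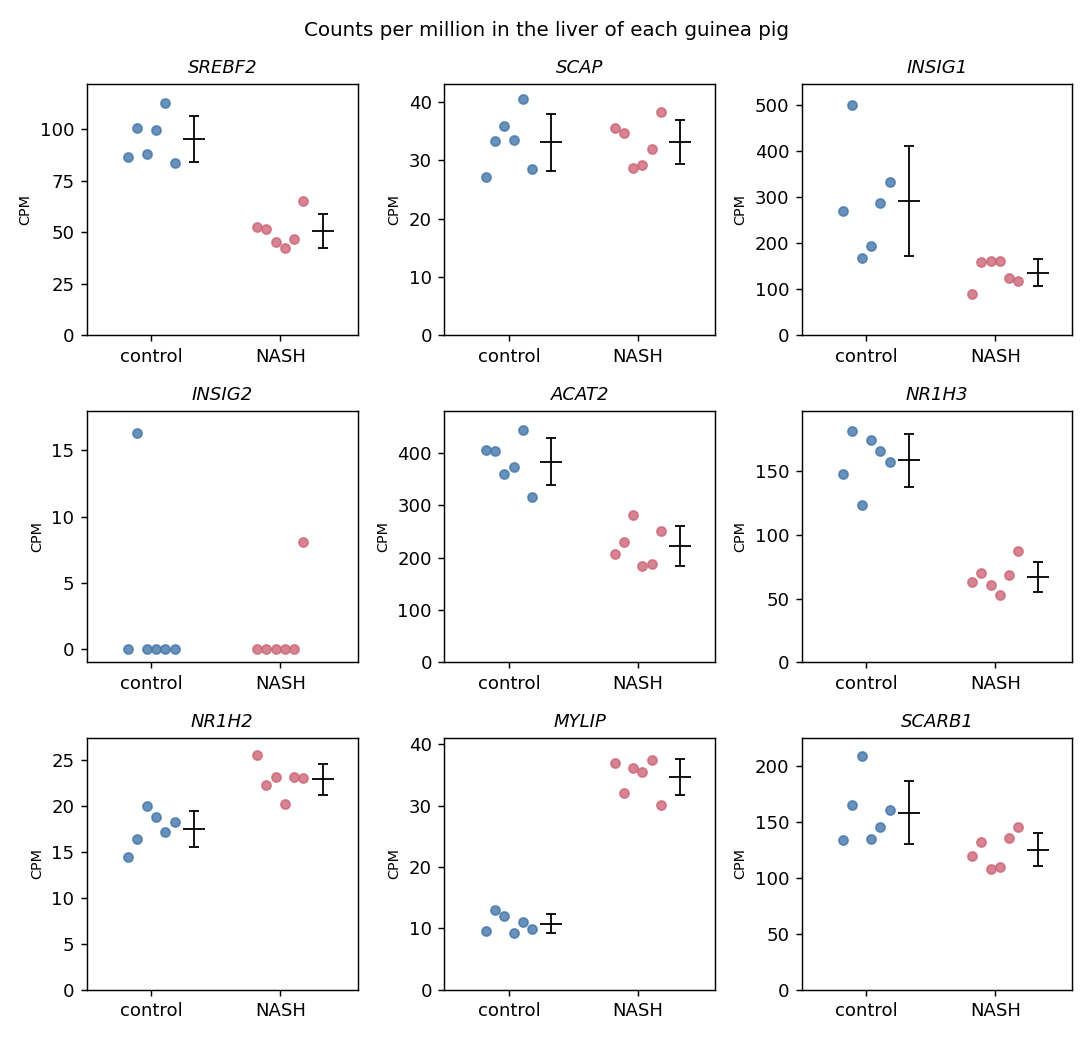
Each point is the CPM of an animal (vertical axis, TMM-scaled, linear), with 6 controls in blue and 6 guinea pigs with NASH in red, and black bars give the mean ± SD, left out for *INSIG2*. *MYLIP* is higher in all animals with NASH (30.0 to 37.4 CPM) than in all controls (9.23 to 13.0 CPM), *SREBF2* and *NR1H3* are lower, *SCAP* overlaps, and *INSIG2* is at 0 in 10 animals.

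*SREBF2* had a lowest, median and highest CPM of 83.7, 93.7 and 113 in controls and of 42.2, 49.3 and 65.1 in NASH. Every animal with NASH was below every control, with control 45 the highest of its group and NASH 65 the highest of the other. The mean fell from 95.1 ± 11.03 to 50.6 ± 8.07 CPM (mean ± SD of 6 animals each), a shift of −0.91 in log2 units (SE 0.11, edgeR adjusted p = 1.9e-05), or 1.88-fold lower. Of all genes tested, 6.46% had a lower log2 fold change than *SREBF2*.

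*SCAP*, the escort of this factor, lay at 27.2, 33.4 and 40.5 CPM (lowest, median and highest) in controls and at 28.8, 33.3 and 38.3 CPM in NASH. The groups overlapped along their whole range. Its log2 fold change was −0.0037, with a 95% interval from −0.24 to 0.23 (edgeR adjusted p = 0.98), so that a change of more than about these limits in either direction lies outside the interval under this scaling. Relative to *SCAP* in the same animal, *SREBF2* therefore shifted, and this ratio does not depend on the scaling between animals. The log2 ratio of *SREBF2* to *SCAP* counts ran from 1.29 to 1.67 among controls and from 0.53 to 0.76 in NASH, a difference of −0.92 (two-sided exact permutation, p = 0.00216, which is the least that 6 against 6 animals can give, adjusted p = 0.00289 over 4 ratios).

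*INSIG1*, which holds SCAP in the ER and is itself a target of SREBP2, had 167, 279 and 499 CPM (lowest, median and highest) in controls and 90.1, 142 and 162 CPM in NASH. The groups did not overlap, but the lowest control lay close to the highest animal with NASH, and control 10 stood well above the others of its group. The controls varied by 40.7% of their mean (SD over mean), against 11.6% for *SREBF2*. *INSIG1* fell from 291 ± 119 to 136 ± 29.8 CPM (mean ± SD of 6 animals each), a shift of −1.10 in log2 units (SE 0.25, edgeR adjusted p = 0.0023), or 2.15-fold lower. Without control 10 it was −0.88 (edgeR adjusted p = 0.00334), and over all alternatives the adjusted p lay between 3.7e-05 and 0.0326.

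*INSIG2*, the second gene of this kind, could not be compared between the groups. Its count row held 318 counts in control 10, 232 in NASH 65 and 0 in the other 10 animals, where a count of 0 allows up to 3 counts, between 0.0765 and 0.214 CPM (counting error only). Of the 11031 count rows behind the symbols, it was the sole one without a count in 10 or more animals. Its edgeR log2 fold change of −1.04 had a 95% interval from −4.96 to 2.88 (adjusted p = 0.65), and without control 10 and NASH 65 no count was left. Whether reads of this gene were assigned to another locus in the other animals was not tested.

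*ACAT2* here is the cytosolic acetyl-CoA acetyltransferase of that symbol, the thiolase that opens sterol synthesis, and not the sterol esterifying enzyme once known by the same name. Its lowest, median and highest values were 317, 388 and 445 CPM in controls and 184, 218 and 282 CPM in NASH. The groups did not overlap, and NASH 11 was the highest animal with NASH. *ACAT2* fell by 0.78 on the log2 scale (SE 0.12, edgeR adjusted p = 0.000113), from 384 ± 44.3 to 223 ± 38.1 CPM (mean ± SD of 6 animals each), or 1.72-fold.

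The 21 other listed targets of SREBP2, genes of sterol synthesis and *STARD4*, a sterol carrier, were all found, and 20 of them were lower and 0 higher in NASH by edgeR, and the median log2 fold change was −1.48 against 0.002 over all genes. The counts were also 20 and 0 at an unadjusted p-value under 0.05 and by DESeq2, and 18 lower and 1 higher with library size alone. *MSMO1*, a sterol methyl oxidase, fell by 2.67 on the log2 scale (SE 0.19, edgeR adjusted p = 3.69e-07), from 171 ± 54.6 to 26.9 ± 2.57 CPM (mean ± SD of 6 animals each), and the groups did not overlap. *SC5D*, a sterol desaturase, fell by 2.45 (SE 0.51, edgeR adjusted p = 0.00146), with overlap between the groups. *GGPS1*, which makes geranylgeranyl diphosphate on a side branch, was the exception with 0.14 (edgeR adjusted p = 0.486). *ACAT2* and *SREBF2* thus had smaller log2 fold changes than the median of this list, a difference that was not tested.

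Of the SREBP list, which holds the genes that process these factors and *SREBF1* itself, 13 of 17 were found, with 4 higher and 3 lower (8 and 1 with library size alone), and the median log2 fold change was 0.05. *SREBF1*, the sister gene whose product drives fatty acid synthesis and which is also counted among the LXR targets below, had a lowest, median and highest value of 7.47, 14.7 and 26.9 CPM in controls and of 42.0, 48.7 and 65.6 CPM in NASH. It was higher in every animal with NASH than in every control, with a shift of 1.70 in log2 units (SE 0.29, edgeR adjusted p = 0.000284), or 3.25-fold. The protease gene *MBTPS2* rose by 0.63 and *SEC24D*, of the vesicle coat, by 0.51 on the log2 scale (edgeR adjusted p = 0.00138 and 0.0011). *PGRMC1*, a haem-binding membrane protein, fell by 1.13 and *TMEM41A* by 0.73 (the latter not called with library size alone, −0.25), whereas *SEC24B*, a coat protein of vesicles that leave the ER, had a log2 fold change of 0.05 (edgeR adjusted p = 0.596).

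*SREBF1* and *SREBF2* thus went in opposite directions. The log2 ratio of their counts within an animal ran from −3.47 to −1.88 among controls and from −0.41 to 0.53 in NASH. The ratio was 6.71-fold higher in NASH, a log2 difference of 2.75 (two-sided exact permutation test, p = 0.00216, adjusted p = 0.00289 over 4 ratios). Each gene alone parted the groups, in opposite directions. The separation of the ratio and its p-value therefore followed from the values above and are no further evidence.

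**Figure D2:**
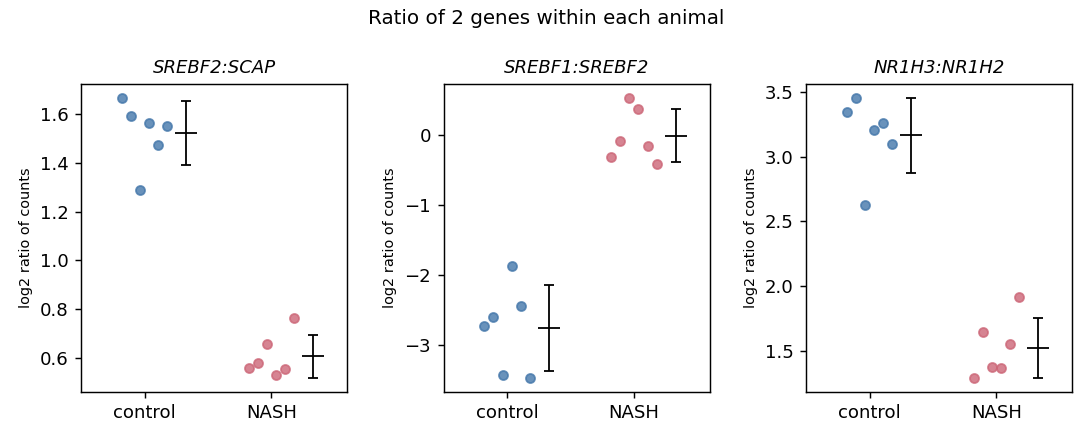
Each point is the log2 ratio of the counts of a pair of genes within an animal (vertical axis, prior count of 2), for 6 controls in blue and 6 guinea pigs with NASH in red, and bars give the mean ± SD. The groups are apart in all 3 ratios shown, with *SREBF2*:*SCAP* and *NR1H3*:*NR1H2* lower and *SREBF1*:*SREBF2* higher in NASH. For *NR1H3*:*NR1H2* and *SREBF1*:*SREBF2* this follows from the separate genes, which part the groups in opposite directions.

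Sterols also act on the proteins of this system through their degradation at the ER. Of 12 listed genes of that machinery 11 were found, 4 of them lower and 1 higher (0 and 7 with library size alone), and the median log2 fold change was −0.13. The ubiquitin ligase *MARCHF6*, which acts on squalene epoxidase, fell by 0.66 (SE 0.09, edgeR adjusted p = 7.74e-05) and *AUP1* by 0.59 on the log2 scale. Both calls were lost with library size alone (−0.19 and −0.12, edgeR adjusted p = 0.0686 and 0.195). *UBXN8* had the smallest change in either direction, 0.0025.

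*NR1H3*, the LXR form that is rich in liver, had a lowest, median and highest value of 123, 161 and 181 CPM in controls and of 52.6, 65.6 and 87.0 CPM in NASH. Every animal with NASH was below every control, and the highest of them was again NASH 65. The gene fell from 158 ± 20.7 to 66.8 ± 11.7 CPM (mean ± SD of 6 animals each), a shift of −1.24 in log2 units (SE 0.12, edgeR adjusted p = 3.94e-06), or 2.37-fold lower. This was the lowest log2 fold change among the members other than *INSIG2*, which could not be compared, and 3.29% of all genes lay lower. Among the hepatocyte markers the log2 fold changes went from −1.29 for *ALB* to 0.05 for *HPX*, with a median of −0.83. The other called members that fell also lay within that range, with *SREBF2* (−0.91) and *ACAT2* (−0.78) nearest its median.

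*NR1H2*, the LXR form found in most tissues, was at 14.4, 17.7 and 19.98 CPM (lowest, median and highest) in controls and at 20.3, 23.1 and 25.6 CPM in NASH. The groups lay next to each other without overlap. The rise was small, from 17.5 ± 1.95 to 22.9 ± 1.71 CPM (mean ± SD of 6 animals each), a shift of 0.39 in log2 units (SE 0.08, edgeR adjusted p = 0.00189), or 1.31-fold. Within an animal the log2 ratio of *NR1H3* to *NR1H2* counts ran from 2.62 to 3.45 among controls and from 1.295 to 1.91 in NASH, a difference of −1.64 (two-sided exact permutation test, p = 0.00216, adjusted p = 0.00289 over 4 ratios), so that this ratio of counts was 3.11-fold lower in NASH. Since *NR1H3* and *NR1H2* each parted the groups, in opposite directions, this separation and its p-value were given in advance and are no further evidence.

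Among the partners and cofactors of LXR, 9 of 12 were found, of which 2 were lower and 0 higher by edgeR (1 and 5 with library size alone), with the same counts at an unadjusted p-value under 0.05 and by DESeq2. *RXRA*, the retinoid X receptor that pairs with LXR, fell by 1.03 on the log2 scale (SE 0.19, edgeR adjusted p = 0.000465), from 302 ± 76.3 to 148 ± 25.8 CPM (mean ± SD of 6 animals each), with overlap between the groups. The coactivator *NCOA2* fell by 0.47, but was at 0.0066 with library size alone (edgeR adjusted p = 0.937), and *PPARGC1B* had a log2 fold change of −0.03. Without control 5, *TBL1XR1* was higher (edgeR adjusted p = 0.0472), and without control 10, *GPS2* was higher (edgeR adjusted p = 0.024) and *NCOA1* lower (edgeR adjusted p = 0.0258).

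*MYLIP*, also known as IDOL, had a lowest, median and highest value of 9.23, 10.5 and 13.0 CPM in controls and of 30.0, 35.8 and 37.4 CPM in NASH. The groups were far apart, and both were narrow, with an SD of 13.9% and 8.54% of the mean. *MYLIP* rose from 10.8 ± 1.49 to 34.7 ± 2.96 CPM (mean ± SD of 6 animals each), a shift of 1.68 in log2 units (SE 0.10, edgeR adjusted p = 1.07e-07), or 3.21-fold. Of all genes, 93.3% had a lower log2 fold change. The same direction was found in all 23 alternatives, with log2 fold changes from 0.97 with rlog values to 2.16 with library size alone. With rlog values every called member had a smaller change.

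Of the LXR target genes, 13 of 15 were found, 9 higher and 3 lower in NASH (10 and 1 with library size alone), and the median log2 fold change was 0.87. Without the members *MYLIP* and *NR1H3*, 8 of 11 were higher and 2 lower. *LPL*, which hydrolyses the triglycerides of lipoproteins, rose most, by 4.33 on the log2 scale (SE 0.16, edgeR adjusted p = 6.57e-09). The cholesterol exporters *ABCA1* and *ABCG1* rose by 3.59 and 2.49 on that scale, *ABCA1* from 16.5 ± 2.58 to 199.9 ± 24.6 CPM (mean ± SD of 6 animals each). The 2 that fell beside *NR1H3* were *ABCG5* (log2 fold change −0.81) and *ABCG8* (−0.70), which together form the exporter of sterols into bile and were named after their values were seen. Both calls were lost with library size alone (−0.34 and −0.24, edgeR adjusted p = 0.103 and 0.0991). *SMPDL3A* had a log2 fold change of 0.11 (edgeR adjusted p = 0.22). Macrophages express several of these genes as well, and of the macrophage markers 8 of 10 were found, 3 higher and 1 lower (6 and 1 with library size alone), with a summed level of 381 to 642 CPM in controls and 965 to 1269.5 CPM in NASH. Most of that rise was *GPNMB*, at a mean of 54.0 CPM in controls and 498 CPM in NASH, and without it the sums overlapped (367 to 584 CPM against 531 to 708 CPM). *CSF1R*, *C1QA*, *C1QB* and *CD14* did not pass the test. *GPNMB* and *TREM2*, markers of lipid-laden macrophages, were among the higher ones, whereas *MARCO*, a marker of resident macrophages, fell by 1.27 on the log2 scale. The mean of *TREM2* was 12.2 CPM in NASH and 0.0688 CPM in controls, the latter below what a count of 0 allows. The part of these macrophage markers in the rise of *MYLIP* was not tested.

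*SCARB1* encodes the receptor that takes up cholesteryl esters from HDL. It had 134, 153 and 210 CPM (lowest, median and highest) in controls and 108, 126 and 146 CPM in NASH. The groups overlapped, and control 31 was the highest animal. The fall, from 158 ± 28.3 to 125 ± 14.97 CPM (mean ± SD of 6 animals each), was a shift of −0.34 in log2 units (SE 0.12, edgeR adjusted p = 0.0275), or 1.263-fold. Among the 7 called members it was the only one that lost its call in any alternative, with an adjusted p from 0.0157 to 0.349 over the alternatives. The call was lost without control 10, control 31, NASH 11 or NASH 20 (adjusted p = 0.0508, 0.0541, 0.0603 and 0.0591 from edgeR).

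Around *SCARB1*, 12 of 13 genes of HDL uptake were found, 4 higher and 4 lower (5 and 2 with library size alone), and the median log2 fold change was −0.16. *APOA2*, an apolipoprotein of HDL, fell by 2.02 on the log2 scale (SE 0.17, edgeR adjusted p = 9.71e-07). *GRAMD1B*, which moves cholesterol from the plasma membrane to the ER, rose by 1.75 (SE 0.27, edgeR adjusted p = 0.000161), from 3.57 ± 1.57 to 12.2 ± 3.09 CPM (mean ± SD of 6 animals each). *PDZK1IP1*, a small membrane protein that binds the *SCARB1* adaptor PDZK1, rose by 1.04, and *GRAMD1A*, a sterol carrier like *GRAMD1B*, had a log2 fold change of −0.03 (edgeR adjusted p = 0.815).

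For endocytosis and the release of lipoprotein cholesterol in lysosomes, 23 of 24 genes were found, 10 higher and 3 lower, and the median log2 fold change was 0.06. With library size alone 22 were higher and 1 lower, under a scaling where 63.9% of all genes were higher. *LIPA*, the acid lipase of lysosomes, rose from 104 ± 26.3 to 280 ± 39.5 CPM (mean ± SD of 6 animals each), a shift of 1.43 in log2 units (SE 0.17, edgeR adjusted p = 2.1e-05). The sorting receptor *SORT1* rose by 1.263 and *NPC1*, which exports cholesterol from lysosomes, by 0.71 on the log2 scale. *LAMP1*, a protein of the lysosomal membrane, fell by 0.70 (SE 0.09, edgeR adjusted p = 3.25e-05). *AP2M1*, an adaptor of clathrin-coated pits, had the smallest change in either direction, 0.02 (edgeR adjusted p = 0.899). Without control 10, NASH 2, NASH 11 or NASH 20 the number of higher genes was 6.

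**Figure D3:**
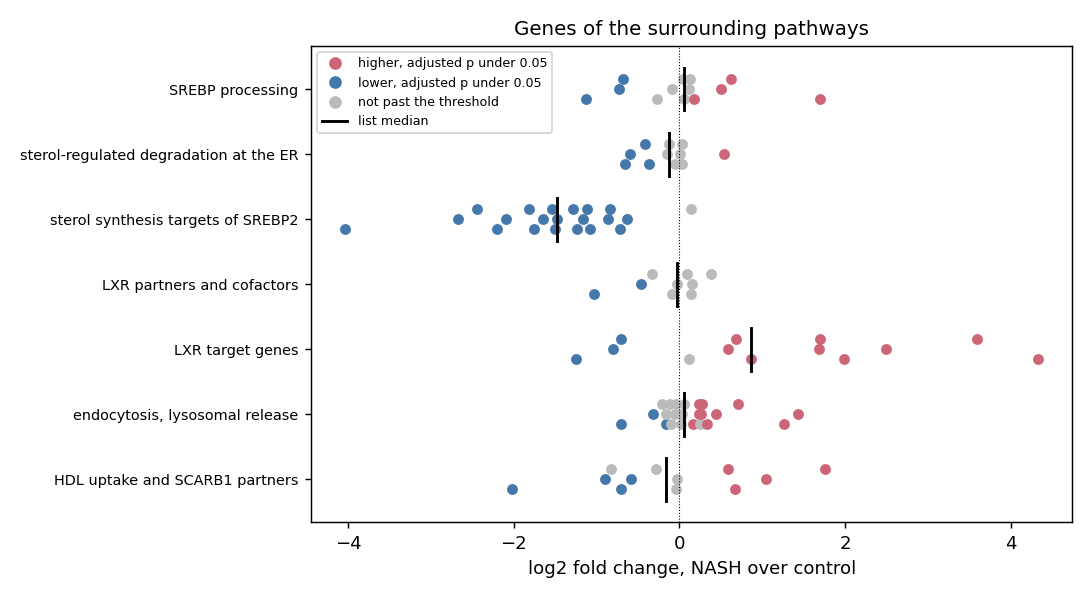
Each point is a gene's log2 fold change, NASH over control (horizontal axis, TMM-scaled, edgeR), for 7 lists of genes around the members, in red where higher and in blue where lower at an adjusted p under 0.05, and in grey otherwise, with a black line at each list's median. The listed targets of SREBP2 lie to the left with a median of −1.48, the LXR target genes mostly to the right with a median of 0.87, and the other lists have medians between −0.16 and 0.06, all of which lie above 0 with library size alone.

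Scaling set the direction of some members. With library size alone, 3 members were higher and 4 lower in place of 2 and 5, while 71.6% of all genes passed, 63.9% higher and 7.66% lower. *SCAP* was then higher (log2 fold change 0.47, edgeR adjusted p = 0.00215; over all alternatives 0.00215 to 0.998), close to the shift of the median gene, and *SCARB1* was at 0.13 (edgeR adjusted p = 0.349). *SREBF2*, *INSIG1*, *ACAT2* and *NR1H3* remained lower (log2 fold changes of −0.44, −0.62, −0.31 and −0.77) and *NR1H2* and *MYLIP* remained higher (0.86 and 2.16), all 6 past the threshold of edgeR. Relative to the median gene under that scaling the values were −0.92, −1.10, −0.78, −1.25, 0.38 and 1.68, in the same order.

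**Figure D4:**
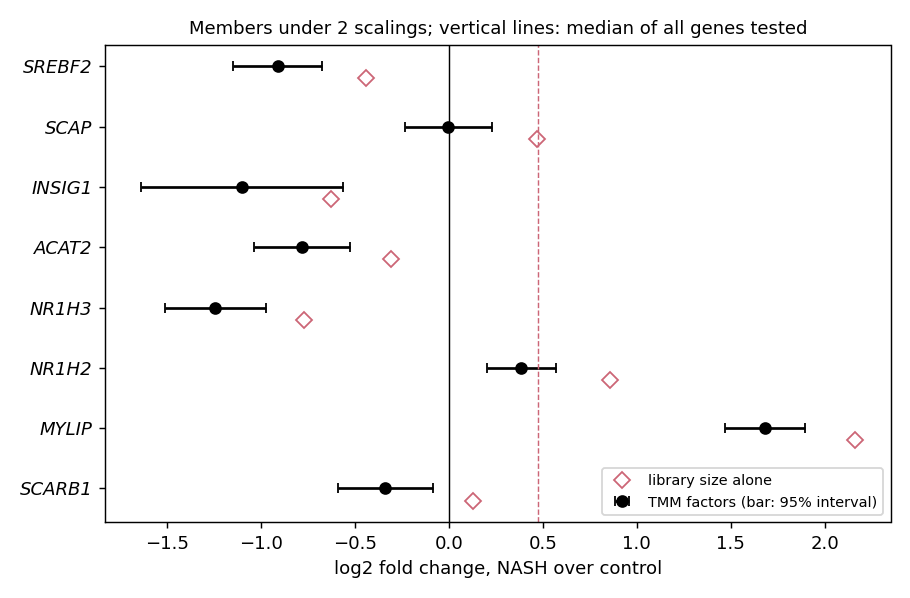
Black points are log2 fold changes, NASH over control (horizontal axis), of 8 members with TMM factors, with bars for the 95% interval from edgeR, and open red diamonds are those with library size alone. The solid and dashed lines mark the median of all genes under each scaling (0.002 and 0.48). *SCAP* sits on these lines, *SCARB1* changes sign between the scalings, and *INSIG2* was left out because it has counts in 2 animals.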

How the data were processed

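The authors trimmed the single reads with Trimmomatic 0.38.0, mapped them with HISAT2 2.1.0 to Cavpor3.0, ignored multimapped reads and quantified loci with StringTie 1.3.6. They deposited raw counts per locus, without symbols, and log2 (rlog) values per human orthologue symbol. The authors' counts came from a strand-specific mRNA kit, and how strand entered the quantification is not given in the sources used here. To join the tables, rlog values were recomputed in DESeq2 1.42.0 from the 18422 of 39061 rows with 200 or more counts, and each symbol was given the row with its values. All 11896 symbols were recovered to within 8.35e-07, from 11031 rows, and 1515 symbols shared a row.

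Counts were tested in R 4.3.3 with edgeR 4.0.16 (TMM, robust glmQLFit and glmQLFTest) over all 11896 symbols, with the total of the whole table as library size. DESeq2, the program of the study's methods, limma 3.58.1 and other scalings, rows and animals were alternatives. Ratios within an animal used a prior count of 2 and exact permutation tests. Plots came from matplotlib 3.10.9 (Python 3.11.15). On simulated data with 200 of 11031 genes changed 4-fold, edgeR, voom and DESeq2 recovered 100% of them, and 4.76%, 3.38% and 10.31% of their calls were false at a threshold of 5%, so that DESeq2 made more false calls there than its threshold states. The simulation was a single draw with the same dispersion for every gene and as many rises as falls. It therefore did not test the scaling, or error rates where most genes change. The members, gene lists and tests were chosen with earlier results of these data known. Named genes are the members, *SREBF1*, the 3 largest called changes and the smallest change of each list, and the genes most alike *INSIG1* and *SREBF2*; other genes were named after their values were seen. Some genes that this rule names are not reported here. No sequence was printed. No sequencing batch was named in the labels, and none was compared.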

Additional observations from a re-analysis of the deposited data

Results flagged for a closer look

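The level of *INSIG2* in control 10 (16.3 CPM) and in NASH 65 (8.12 CPM) lay outside its group, since the other 5 animals of each group were at 0. The log2 ratio of *INSIG1* to *INSIG2* counts was low in the same animals, 4.93 in control 10 and 3.84 in NASH 65, which is the same *INSIG2* count seen again. In the other 10 animals this ratio has no *INSIG2* count under it and is set by the prior count of 2, so that no value is given for them. Dixon's criterion was applied to 28 groups of 6 animals and picked out these 4, where chance picks about 1 in 20.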

How the results depend on the processing

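The counts of members that were higher or lower stayed within 1.5 times in all 23 alternatives, at 2 to 3 higher and 4 to 5 lower. With library size alone, the numbers higher and lower were 8 and 1 for SREBP processing, 7 and 0 for degradation at the ER, 5 and 1 for LXR partners, 22 and 1 for endocytosis and lysosomal release and 5 and 2 for HDL uptake, while 1 sterol synthesis gene was higher and 1 LXR target lower. That scaling moves the median of all genes by its construction. The log2 fold change of *SCAP* was above 0 with the upper-quartile factors (0.068), library size alone (0.47), rlog values (0.0012), every row with a count (0.080) and the rows of filterByExpr (0.049), and between −0.055 and 0.062 with each animal left out. *SCARB1* was at 0.13 with library size alone and lost its call with the upper-quartile factors, every row with a count, filterByExpr and a threshold of 0.01. With each animal left out, *INSIG2* ran from −9.13 to 8.14, fitted values against a group without a count that are no bounds, and the difference in the *INSIG1*:*INSIG2* log2 ratio from −1.54 to 0.72. The prior count of 2 sets that ratio in the 10 animals without an *INSIG2* count, so its test, one of the 4 adjusted together, is void and nothing is read from it. Over the same fits the number of higher genes was 0 to 1 for LXR partners and 6 to 10 for endocytosis and lysosomal release. The cause of the other shifts was not tested. The other 3 ratios kept their direction and call in all 15 alternatives. For *NR1H3*:*NR1H2* and *SREBF1*:*SREBF2* this followed from the separate genes, which parted the groups in opposite directions. Leaving out control 10 and NASH 65 together was chosen after the data were seen and changed no count of members. No paired analysis was possible because the groups share no animal number. Among the members, counts of 0 occurred for *INSIG2* alone, and no group could be compared there.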

Other observations

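Within the groups, after subtraction of the group means of the rlog values, *SREBF2* varied together with *SCAP* (Pearson's r = 0.83 over 12 animals) and with *NR1H3* (r = 0.77), whereas with *INSIG1* the value was −0.08, from 0.20 among the 6 controls and −0.50 among the 6 animals with NASH. These values are descriptions, since the genes of an animal share its library and scaling. The 3 genes most alike *INSIG1* in this sense were *EOGT* (r = 0.93), *SAT1* (r = 0.91) and *FST* (r = 0.91), and those most alike *SREBF2* were *FKBP8* (r = 0.88), *MAPRE3* (r = 0.87) and *RABEPK* (r = 0.86), each the top of 11896 symbols and so high in part by selection.

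Of 9 stellate cell and myofibroblast markers 6 were higher and 1 lower (6 and 0 with library size alone), with a summed level of 585 to 740 CPM in controls and 1297 to 2547 CPM in NASH. Of 5 cholangiocyte markers 4 were higher and 0 lower by edgeR (5 and 0 at an unadjusted p-value under 0.05), at 90.3 to 120.5 CPM in controls and 294 to 523 CPM in NASH. Of 4 erythroid markers, all 4 were higher, at 57.4 to 172 CPM in controls and 427 to 4531 CPM in NASH. Of 7 endothelial markers 2 were higher and 2 lower (3 and 1 with library size alone), and of 5 T cell markers 0 were higher and 1 lower by edgeR (0 and 2 at an unadjusted p-value under 0.05, 2 and 1 with library size alone).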
